A study of Mus musculus with 8 samples.

Results

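The 10 genes *Calcr*, *Cd34*, *Sdc3*, *Sdc4*, *Chrdl2*, *Tek*, *Itm2a*, *Gpx3*, *Cxcr4* and *Gas1* encode surface and secreted proteins of the quiescent muscle stem cell (MuSC) and its niche. They were taken by gene symbol from a table of 55487 genes, and all 10 were found there and passed the filter on low counts. RNA was sequenced from MuSCs of young male C57BL/6 mice (C57BL/6 J in the study's methods), sorted by flow cytometry 21 days after surgery on 1 hind limb. In the denervated group (DEN) the sciatic nerve had been transected, and the control group had undergone Sham surgery. Both groups were of the same strain and sex, and each library came from the hind limb muscles of 1 mouse. Live cells that stained for α7-integrin were kept, and cells carrying Sca-1, CD11b (myeloid), CD31 (endothelial) or CD45 (leukocyte) were gated out. The series holds 4 libraries per group. The study left out DEN replicate 1 as an outlier, so here DEN replicates 2, 3 and 4 were compared with Sham replicates 1 to 4, and DEN replicate 1 is given apart.

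In resting muscle, MuSCs lie under the basal lamina in a quiescent state, held there by signals from the myofiber, the vessels and the matrix. The calcitonin receptor acts through cyclic AMP to keep them quiescent, the angiopoietin receptor Tie2 links them to vessel-derived ligands, and the syndecans, carrying heparan sulfate, present growth factors to their receptors. CD34 is a sialomucin widely used to mark quiescent MuSCs, and CXCR4 is the receptor of the chemokine CXCL12.

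After denervation, *Gas1* fell to 0.473 of its Sham level (95% interval 0.387 to 0.577), *Itm2a* fell to 0.630 (0.479 to 0.827) and *Gpx3* rose to 1.40 times its Sham level (1.19 to 1.65). The other 7 genes, *Calcr*, *Cd34*, *Sdc3*, *Sdc4*, *Chrdl2*, *Tek* and *Cxcr4*, did not pass the threshold. Calls are adjusted p-values under 0.05 from edgeR's quasi-likelihood test with Benjamini-Hochberg adjustment over all 17454 genes tested. Of the 10 genes, 1 was called higher and 2 lower. Across all genes tested 10.6% were called, 5.29% higher and 5.32% lower. The groups did not overlap for 2 of the 10 (*Gas1* and *Gpx3*), against 23.4% of all genes tested. The median log2 fold change was -0.12 over the 10 genes and -0.00 over all genes tested. With DEN replicate 1 included, the same 3 genes were called, and 11.5% of all genes tested were. In bulk RNA of sorted cells, fewer cells of a kind and less RNA per cell cannot be told apart.

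The promoters of the 3 called genes are shown because their transcripts differed between the groups. Each window is 300 bases of the RefSeq sequence of GRCm38.p6, from 250 bases before the RefSeq start of the gene to 50 after it, with CpG dinucleotides in capitals. *Gas1* (growth arrest-specific 1) is on the minus strand at chr13:60177486-60177785, *Itm2a* on the minus strand at chrX:107403311-107403610 and *Gpx3* on the plus strand at chr11:54902604-54902903. For *Gas1* and *Gpx3* the GENCODE M21 gene models used below start elsewhere. *Gpx3* begins there at 54902453, so its window lies inside the gene. *Gas1* begins there at 60177365, so its window lies wholly before the gene. These windows may thus not be the promoters of the transcripts counted.
Gas1: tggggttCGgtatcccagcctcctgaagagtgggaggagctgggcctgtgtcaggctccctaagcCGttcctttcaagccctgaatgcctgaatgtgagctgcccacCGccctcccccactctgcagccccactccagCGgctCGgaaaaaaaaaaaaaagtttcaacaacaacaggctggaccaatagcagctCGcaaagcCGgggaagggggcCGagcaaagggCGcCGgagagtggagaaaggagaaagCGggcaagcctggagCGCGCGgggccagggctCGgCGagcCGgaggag
Itm2a: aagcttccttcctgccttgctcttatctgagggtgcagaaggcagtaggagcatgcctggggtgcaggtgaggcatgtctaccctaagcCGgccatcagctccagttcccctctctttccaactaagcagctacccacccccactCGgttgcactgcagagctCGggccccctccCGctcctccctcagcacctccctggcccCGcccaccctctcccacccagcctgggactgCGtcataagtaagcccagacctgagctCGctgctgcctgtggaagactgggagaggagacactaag
Gpx3: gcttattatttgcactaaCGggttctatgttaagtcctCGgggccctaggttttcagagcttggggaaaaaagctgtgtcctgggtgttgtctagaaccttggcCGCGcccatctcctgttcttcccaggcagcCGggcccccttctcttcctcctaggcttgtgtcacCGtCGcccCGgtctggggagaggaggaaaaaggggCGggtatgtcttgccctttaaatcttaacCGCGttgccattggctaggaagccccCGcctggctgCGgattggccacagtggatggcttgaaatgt
These windows hold 17 CpG in *Gas1*, 7 in *Itm2a* and 13 in *Gpx3*, where the median of 32851 mouse promoter windows is 7. Their GC content was 62.3% for *Gas1*, 62.0% for *Itm2a* and 56.3% for *Gpx3*, with a median of 52.7% over all windows. A RefSeq window was found for 9 of the 10 genes, with 2 windows for *Calcr* and none for *Chrdl2*. CpG counts ran from 3 in *Tek* to 44 in *Sdc3*. A few short motifs were searched in these 10 windows. TGANTCA (AP-1), GTGGGAA (RBPJ, the Notch effector) and CAGCTG (an E-box of myogenic factors), on both strands, were in none of them, where 7.81%, 6.38% and 16.3% of all windows hold them. TATAAA (the TATA box, searched on the gene's own strand) was in the *Cxcr4* window alone, 30 bases before the start, and in 8.32% of all windows. With 1 match in all, no motif overlapped another, and a match or its absence is a description of these letters only.

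Per length of gene, in the deposited RPKM (reads scaled to gene length and library size), the 10 genes spanned more than 2 orders of magnitude in Sham MuSCs. *Gpx3*, a secreted glutathione peroxidase and selenoprotein, was at 6325 ± 831 RPKM (SD, n = 4), the fifth highest level of the 17454 genes tested. *Gas1* followed with 1127 ± 154 RPKM and *Itm2a* with 529 ± 132 RPKM, ranks 24 and 63. *Chrdl2* (198 ± 2.28 RPKM) and *Sdc4* (193 ± 37.4 RPKM) came next, and their Sham ranges overlapped. *Cd34* (75.0 ± 4.91 RPKM) and *Calcr* (69.2 ± 12.9 RPKM) also overlapped each other. *Tek* stood at 36.5 RPKM (31.1 to 43.1), and the lowest levels were those of *Cxcr4* (23.7 ± 3.40 RPKM) and *Sdc3* (20.9 ± 2.95 RPKM), which overlapped. Neighbours in this order whose overlap is not mentioned had Sham ranges apart from each other. The lowest of the 10, *Sdc3*, still ranked 3037 of 17454.

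**Figure D1:**
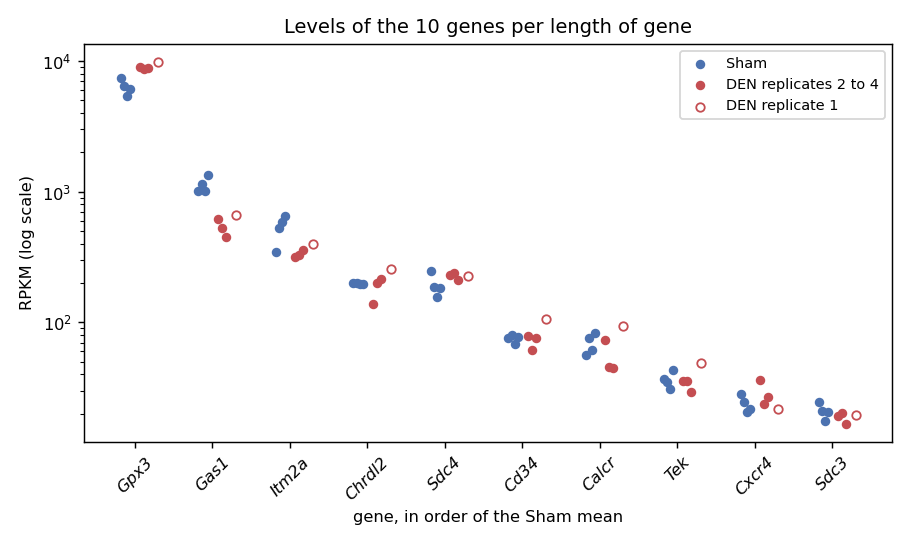
Deposited RPKM (log axis) of each gene, ordered by the Sham mean, with 1 point per library for Sham, DEN replicates 2 to 4 and DEN replicate 1 (open circle). *Gpx3* lay above all others in every library, and *Gas1* was the gene whose DEN points fell clearest below its Sham points.

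*Gas1* encodes a glycolipid-anchored surface protein that binds hedgehog ligands and is distantly related to the GDNF family receptors. The gene lies at chr13:60174405-60177365 on the minus strand (GRCm38, GENCODE M21). In counts scaled to library size by TMM (CPM), it was at 2996, 3354, 3027 and 3969 in Sham replicates 1 to 4 and at 1818, 1568 and 1343 in DEN replicates 2 to 4. Every DEN library was below every Sham library, with no value of these 7 libraries between 1818 and 2996. DEN replicate 1, at 1998 CPM, was also below all Sham libraries. The log2 fold change was -1.08 ± 0.13 (SE, 95% interval -1.37 to -0.79, edgeR quasi-likelihood adjusted p = 0.000654, means 1576 ± 238 and 3336 ± 452 CPM, SD, n = 3 and 4). It was called under all 17 alternative settings. An antisense gene, *Gm48488*, shares 589 exon bases with *Gas1* (19.9% of its exon bases) and reads were counted without strand. *Gm48488* held 281 to 456 counts per library, against 38310 to 117047 for *Gas1*. How reads in shared bases were assigned is not stated, so such counts do not measure the effect of an overlap.

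*Itm2a* encodes a single-pass membrane protein of the BRICHOS family and lies on chromosome X at chrX:107397099-107403376, minus strand. Its level was 603, 913, 1038 and 1140 CPM in Sham replicates 1 to 4 and 555, 570 and 619 CPM in DEN replicates 2 to 4. Sham replicate 1 lay among the DEN libraries, so the groups overlapped, while the other 3 Sham libraries were above every DEN library. DEN replicate 1 had 706 CPM, above Sham replicate 1 and below the other 3. The log2 fold change was -0.67 ± 0.18 (SE, 95% interval -1.06 to -0.27, edgeR adjusted p = 0.0383). Leaving out Sham replicate 1 gave the lowest adjusted p of the single-library exclusions (0.00079), and leaving out any other library ended the call (-0.63, -0.65 and -0.71 without DEN replicates 2, 3 and 4, and -0.68, -0.61 and -0.55 without Sham replicates 2, 3 and 4, edgeR adjusted p from 0.0728 to 0.127). With no filter on low counts it was -0.67 and not called (adjusted p = 0.0952).

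*Itm2b* and *Itm2c*, the relatives of *Itm2a*, were not called, with log2 fold changes of -0.03 ± 0.08 (SE) and 0.10 ± 0.07. Of these, 0 had an unadjusted p under 0.05, and DESeq2 and limma called 0. As a share of the summed RPKM of the 3 family members, *Itm2a* held 25.3, 31.7, 33.9 and 38.3% in Sham replicates 1 to 4 and 22.6, 22.9 and 24.9% in DEN replicates 2 to 4. All 3 DEN shares were below all 4 Sham shares, with Sham replicate 1 closest to them, and the mean fell from 32.3 ± 5.40% to 23.5 ± 1.22% (SD). The two-sided exact permutation test gave p = 0.0571 (0.171 adjusted over 3 families), where the smallest p it allows is 0.0286.

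*Gpx3* lies at chr11:54902453-54910377 on the plus strand. It had 13331, 11617, 9888 and 10982 CPM in Sham replicates 1 to 4 and 16388, 15652 and 16097 CPM in DEN replicates 2 to 4. All DEN libraries were above all Sham libraries, and the DEN libraries lay close together. DEN replicate 1 was the highest of the 8 at 18065 CPM. On the log2 scale the change was 0.49 ± 0.11 (SE, 95% interval 0.25 to 0.72, edgeR adjusted p = 0.0164). The call was lost without DEN replicate 2 (0.47, adjusted p = 0.0656), DEN replicate 4 (0.49, 0.0516) or Sham replicate 2 (0.49, 0.0520). *Gpx3* was the most counted gene in 7 of the 8 libraries, with 0.979 to 1.34% of all counts in Sham, 1.56 to 1.64% in DEN replicates 2 to 4 and 1.78% in DEN replicate 1.

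Among the glutathione peroxidases and the genes of selenoprotein synthesis, 10 were tested. Of these, 2 were called higher and none lower (20%, where 10.6% of all genes tested were called), with a median log2 fold change of 0.05. *Gpx4*, which reduces lipid peroxides in membranes, rose by 0.44 ± 0.09 on the log2 scale (SE, edgeR adjusted p = 0.0112). *Gpx1*, the cytosolic enzyme, rose by 0.31 ± 0.08 (adjusted p = 0.0318), but was called in only 2 of 7 fits that left out 1 library (0.27 to 0.38, adjusted p 0.0259 to 0.112, not called without DEN replicate 2 or 4 or Sham replicate 1, 2 or 4), and with DEN replicate 1 included it was at 0.24 (adjusted p = 0.123). *Gpx3* made up 94.9 ± 0.168% of the summed RPKM of 5 glutathione peroxidases in DEN and 94.2 ± 0.906% in Sham (SD, exact permutation p = 0.257).

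**Figure D2:**
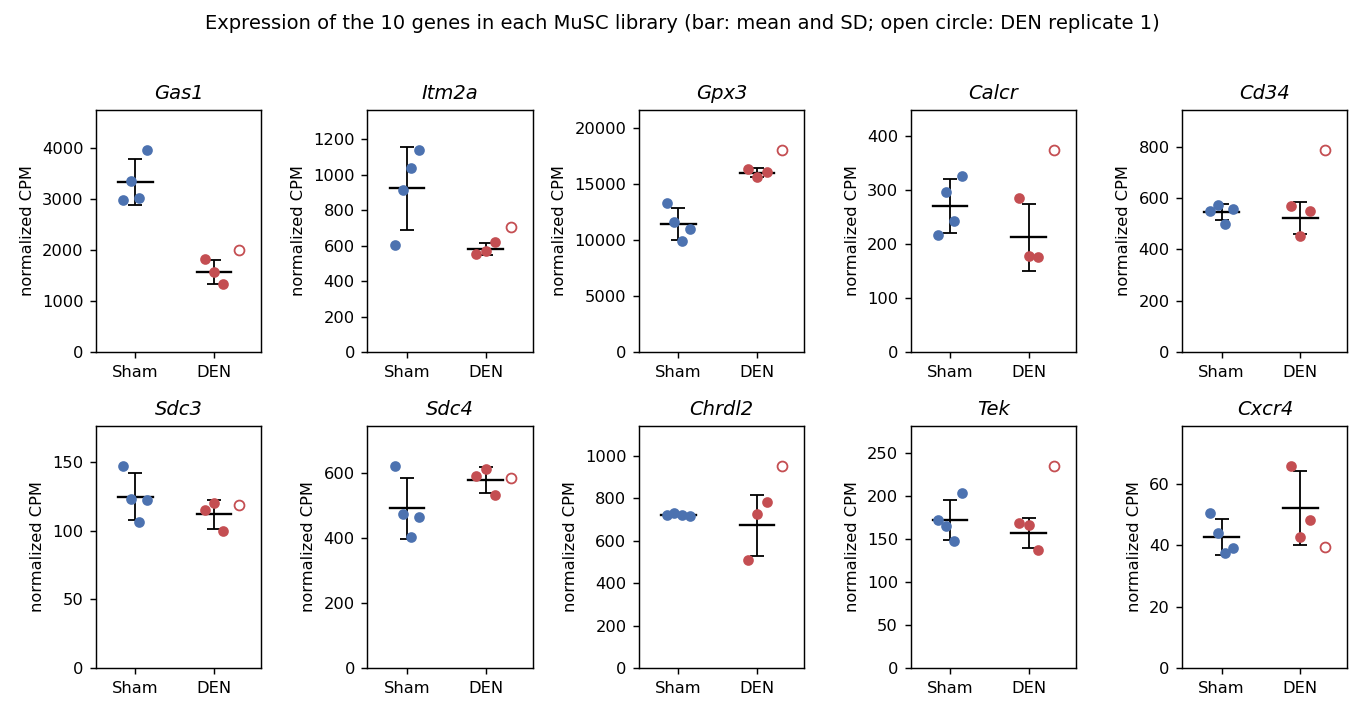
Normalized CPM of the 10 genes in each library (points), with the mean and SD of 4 Sham and 3 DEN libraries (black) and DEN replicate 1 as an open circle. *Gas1* and *Gpx3* have separate groups, *Itm2a* overlaps through Sham replicate 1, and DEN replicate 1 is the highest of the 8 libraries for *Calcr*, *Cd34*, *Chrdl2*, *Tek* and *Gpx3*.

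*Calcr*, the calcitonin receptor (chr6:3685680-3764714, minus strand), was at 217, 297, 242 and 326 CPM in Sham and at 284, 179 and 176 CPM in DEN replicates 2 to 4. Of the DEN libraries, replicates 3 and 4 were below every Sham library, while replicate 2 lay within the Sham range. DEN replicate 1 was the highest of all at 374 CPM. The difference on the log2 scale was -0.35 (95% interval -0.76 to 0.07, edgeR adjusted p = 0.281). Without DEN replicate 2 it was -0.61 and called (adjusted p = 0.0491), and with DEN replicate 1 included it was -0.10 (adjusted p = 0.841).

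In the list of calcitonin receptor partners, cyclic AMP effectors and collagen V ligands, 16 genes were tested. Of these, 1 was called higher and 2 lower (18.8%, where 10.6% of all genes tested were called, median log2 fold change -0.01). *Rapgef3*, an exchange factor activated by cyclic AMP, was at 2.62 ± 0.715 CPM in Sham and 0.460 ± 0.222 CPM in DEN (SD), a log2 fold change of -2.50 ± 0.38 (SE, edgeR adjusted p = 0.00233). *Ramp2*, which encodes a protein that pairs with calcitonin-family receptors, fell by 0.56 ± 0.10 on the log2 scale (adjusted p = 0.00584). Both were lower in 3 of 3 DEN libraries than in any Sham library, where 23.4% of all genes tested had groups that did not overlap. *Col5a3*, a chain of collagen V, which has been described as a ligand of the calcitonin receptor in mouse MuSCs, rose by 0.45 ± 0.11 (adjusted p = 0.0255). That call was lost without DEN replicate 3 (0.37, adjusted p = 0.0947), DEN replicate 4 (0.48, 0.0606) or Sham replicate 2 (0.44, 0.0677), and with DEN replicate 1 included (0.37, 0.0680).

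*Cd34* (chr1:194938819-194961279, plus strand) was at 551, 575, 500 and 559 CPM in Sham and at 569, 451 and 549 CPM in DEN replicates 2 to 4. The groups overlapped, and DEN replicate 1 was the highest library at 788 CPM. The difference was -0.06 on the log2 scale (95% interval -0.27 to 0.14, edgeR adjusted p = 0.742), and with DEN replicate 1 included it was 0.11. An antisense gene, *Gm16897*, shares 148 exon bases and held at most 95 counts per library. Of 4 tested relatives and partners of CD34, 1 was called in each direction (50% in all, where 10.6% of all genes tested were called). *Podxl2* (endoglycan) fell by 0.70 ± 0.13 on the log2 scale (SE, adjusted p = 0.00707) and *Podxl* (podocalyxin) rose by 0.98 ± 0.25 (adjusted p = 0.0304). *Podxl* was low, at 8.01 ± 1.13 CPM in DEN and 4.06 ± 1.24 CPM in Sham (SD), and its call was lost without DEN replicate 2, 3 or 4 or Sham replicate 4 (0.86 to 1.05, adjusted p 0.0612 to 0.104).

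*Sdc4*, syndecan 4 (chr2:164424247-164443887, minus strand), was at 621, 472, 403 and 465 CPM in Sham and 591, 611 and 533 CPM in DEN replicates 2 to 4. Sham replicate 1 was above every DEN library and the other 3 Sham libraries were below every one. The log2 fold change was 0.24 (95% interval -0.05 to 0.52, edgeR adjusted p = 0.285), and without Sham replicate 1 it was 0.37 and called (adjusted p = 0.0292). *Sdc3*, syndecan 3 (chr4:130792537-130826319, plus strand), was at 147, 123, 106 and 123 CPM in Sham and 115, 121 and 100 CPM in DEN replicates 2 to 4, with overlapping groups (log2 fold change -0.16, 95% interval -0.40 to 0.09, edgeR adjusted p = 0.427). DEN replicate 1 lay within the range of the other libraries for both, at 583 CPM for *Sdc4* and 119 CPM for *Sdc3*. *Sdc4* held 67.1 ± 1.15% of the summed RPKM of the 4 syndecans in DEN and 63.0 ± 4.73% in Sham (SD, exact permutation p = 0.229).

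Of 7 other syndecans and glypicans tested, *Gpc1* (glypican 1) alone was called (14.3%, where 10.6% of all genes tested were called). It rose by 0.47 ± 0.08 on the log2 scale (SE, edgeR adjusted p = 0.00534). Of 22 enzymes of heparan sulfate synthesis and editing, *Sulf1* alone was called (4.55%). It encodes an extracellular sulfatase that removes 6-O-sulfate from heparan sulfate, and Sham libraries averaged 281 ± 40.7 CPM and DEN libraries 498 ± 13.7 CPM (SD, log2 fold change 0.82 ± 0.11, SE, adjusted p = 0.00100). Of 12 ligands, receptors and partners of syndecans tested, 1 was called in each direction (16.7% in all). *Sdcbp* (syntenin, which binds syndecan tails) rose by 0.52 ± 0.09 (adjusted p = 0.00400) and *Fn1* (fibronectin, a matrix ligand of syndecan 4) fell by 0.52 ± 0.10 (adjusted p = 0.00829). These 4 genes were called under every alternative setting.

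*Chrdl2*, a secreted chordin-like protein that binds bone morphogenetic proteins (BMPs), lies at chr7:100006172-100034728 on the plus strand. It was at 723, 729, 723 and 717 CPM in Sham and 509, 727 and 781 CPM in DEN replicates 2 to 4. The Sham libraries lay close together, and the DEN libraries lay on both sides of them. DEN replicate 1 was the highest of the 8 libraries at 953 CPM. Between the groups the difference was -0.10 on the log2 scale (95% interval -0.38 to 0.17, edgeR adjusted p = 0.677), and it was 0.06 without DEN replicate 2 and 0.04 with DEN replicate 1 included.

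In the BMP list, 7 of 24 tested genes were called higher and 3 lower (41.7%, where 10.6% of all genes tested were called, median log2 fold change 0.05). *Chrdl1*, its chordin-like relative, fell from 8.67 ± 1.16 to 2.34 ± 0.204 CPM (SD, log2 fold change -1.89 ± 0.18, SE, edgeR adjusted p = 0.000184). The ligand *Bmp4* rose from 131 ± 17.8 to 375 ± 108 CPM (1.52 ± 0.18, adjusted p = 0.000554) and the ligand *Bmp6* from 350 ± 55.0 to 625 ± 55.0 CPM (0.84 ± 0.12, adjusted p = 0.00184). *Id3*, a BMP target and inhibitor of helix-loop-helix factors, rose from 428 ± 149 to 1194 ± 215 CPM (1.48 ± 0.23, adjusted p = 0.00303). Each of these 4 genes had DEN and Sham libraries that did not overlap, as did 23.4% of all genes tested. The 4 were picked for their small adjusted p, so this is no separate support. The other 6 called genes, named after their values were seen, were the targets *Id1* (log2 fold change 1.19, adjusted p = 0.0205) and *Id2* (0.99, 0.00633), the inhibitory SMADs *Smad6* (1.26, 0.0320) and *Smad7* (1.54, 0.00647), the ligand *Bmp2* (-0.80, 0.00633) and the antagonist *Chrd* (-0.52, 0.0322). *Id1*, *Smad6* and *Chrd* lost their calls when single libraries were left out (adjusted p up to 0.0860, 0.134 and 0.127), and *Id1* and *Smad6* also with no filter on low counts (adjusted p = 0.144 and 0.141). The libraries concerned were DEN replicates 2 and 4 and Sham replicate 3 for all 3 genes, with Sham replicate 2 for *Id1* and *Smad6* and Sham replicate 4 for *Smad6* and *Chrd*.

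**Figure D3:**
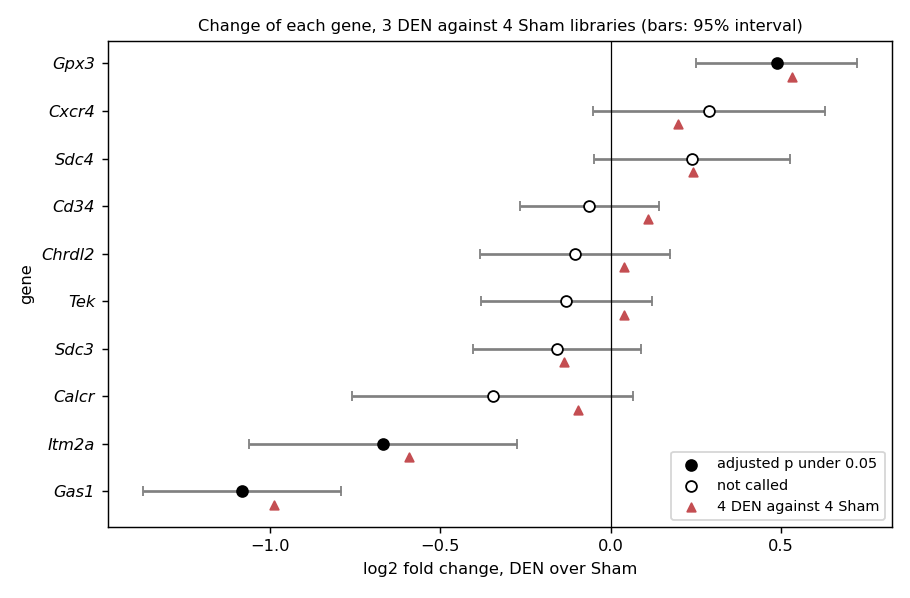
Log2 fold change of each gene with its 95% interval for 3 DEN against 4 Sham libraries (circles, filled where the edgeR adjusted p was under 0.05), and the value with DEN replicate 1 included (triangles). The intervals of *Gas1*, *Itm2a* and *Gpx3* leave out 0, and the triangles of *Cd34*, *Chrdl2* and *Tek* lie on the other side of 0 from their circles.

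*Tek* encodes Tie2, the tyrosine kinase receptor of the angiopoietins, and lies at chr4:94739289-94874976 on the plus strand. It was at 172, 164, 148 and 203 CPM in Sham, 168, 166 and 137 CPM in DEN replicates 2 to 4 and 235 CPM in DEN replicate 1. The groups overlapped, and the highest library was DEN replicate 1. On the log2 scale the value was -0.13 (95% interval -0.38 to 0.12, edgeR adjusted p = 0.538), and 0.04 with DEN replicate 1 included. None of 5 tested genes of the angiopoietin and Tie pathway was called by edgeR, 0 had an unadjusted p under 0.05, and the 2 most expressed were the ligand *Angpt2* (0.08 ± 0.19, SE) and *Svep1* (-0.03 ± 0.20), an extracellular protein that binds TIE1. DESeq2 and limma also called 0 of the 5.

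*Tek* and *Cd34* are also genes of endothelium. Of 14 endothelial markers tested, 0 were called by edgeR, and 3 had an unadjusted p under 0.05 (DESeq2 called 2, limma 2). Their summed level was 381 to 421 CPM in DEN replicates 2 to 4, 372 to 444 CPM in Sham and 369 CPM in DEN replicate 1, and *Esam* alone made up 320 to 389 CPM of it. *Pecam1* was at most 4.66 CPM, *Cdh5* at most 4.17 CPM and *Flt1* at most 22.1 CPM in any library. CD31, the product of *Pecam1*, was a negative marker of the sort. The changes went in both directions (median log2 fold change -0.07). *Cdh5* was at -1.54 (edgeR adjusted p = 0.0611), *Flt1* at -0.82 (0.0754) and *Plvap* at 3.02 (0.110). *Plvap* reached 12.7 CPM in DEN replicate 4 and at most 0.712 CPM elsewhere.

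*Cxcr4* (chr1:128588199-128592293, minus strand) was at 50.6, 44.0, 37.4 and 39.2 CPM in Sham and at 65.9, 42.6 and 48.2 CPM in DEN replicates 2 to 4. DEN replicate 2 was above all Sham libraries and the other 2 lay within their range, as did DEN replicate 1 at 39.5 CPM. The log2 fold change was 0.29 (95% interval -0.05 to 0.63, edgeR adjusted p = 0.278). Of 11 tested genes of the CXCL12 axis, *Ackr3* alone was called (9.09%, where 10.6% of all genes tested were called). *Ackr3*, the scavenging receptor of CXCL12, fell by 0.42 ± 0.11 on the log2 scale (SE, edgeR adjusted p = 0.0331). DEN replicate 1, at 469 CPM, had the highest *Ackr3* level of the 8 libraries, and with it included the value was -0.19 (adjusted p = 0.540). The *Ackr3* call was also lost without DEN replicate 2 or 3 or Sham replicate 1, 2 or 4 (-0.42 to -0.35, adjusted p 0.0629 to 0.136). The ligand itself, *Cxcl12*, named after its value was seen, was at 1627 ± 64.8 CPM in DEN and 1892 ± 291 CPM in Sham (SD, log2 fold change -0.22, adjusted p = 0.271).

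For these 7 genes, a p that misses the threshold does not show that the groups were alike. The intervals leave room for a decrease of *Calcr* to 0.591 of its Sham level and an increase of *Cxcr4* to 1.55 times, and for *Cd34* they run from 0.831 to 1.10 times.

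Beside *Gas1*, the genes of hedgehog and GDNF reception gave 1 call higher and 2 lower among 14 tested (median log2 fold change 0.03). The share called was 21.4%, where 10.6% of all genes tested were called. *Ret*, the signalling receptor of GDNF family ligands, was at 85.5, 106, 91.7 and 152 CPM in Sham and at 22.3, 23.2 and 30.7 CPM in DEN replicates 2 to 4, with 30.5 CPM in DEN replicate 1. No library of one group reached into the other, where 23.4% of all genes tested had no overlap between 3 DEN and 4 Sham libraries. The log2 fold change of *Ret* was -2.10 ± 0.20 (SE, edgeR adjusted p = 0.000219). *Gfra1*, the co-receptor that binds GDNF, fell by 0.85 ± 0.19 on the log2 scale (adjusted p = 0.0172), a call lost without DEN replicate 2, 3 or 4 (-0.87 to -0.82, adjusted p 0.0537 to 0.0671) or with no filter on low counts (-0.85, 0.0512). *Gdnf*, the ligand, rose from 2.22 ± 0.774 to 4.73 ± 0.920 CPM (SD, 1.08 ± 0.28, SE, adjusted p = 0.0324), and was called in only 2 of 7 fits with 1 library left out (0.93 to 1.34, adjusted p 0.00934 to 0.124, not called without DEN replicate 2 or 4 or Sham replicate 2, 3 or 4). *Boc*, a hedgehog co-receptor that acts beside GAS1, was named after its value was seen. It was 0.41 ± 0.13 higher on the log2 scale, short of the threshold (adjusted p = 0.0687), but called by DESeq2 (0.42, adjusted p = 0.0246), with DEN replicate 1 included (0.42, adjusted p = 0.0421) or without Sham replicate 1 (0.54, 0.00909).

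Other surface proteins of MuSCs gave 4 calls higher and 1 lower among 18 tested (27.8%, median log2 fold change 0.00). *Osmr*, the oncostatin M receptor, rose from 37.9 ± 5.04 to 101 ± 6.98 CPM (SD, 1.41 ± 0.11, SE, edgeR adjusted p = 6.62e-05), *Notch1* rose by 0.59 ± 0.10 on the log2 scale (adjusted p = 0.00392) and *Cdh15* (M-cadherin) by 0.57 ± 0.11 (0.0106). *Lifr*, the receptor of leukemia inhibitory factor, fell by 0.37 ± 0.09 (0.0308), and of the 7 fits with 1 library left out only the one without Sham replicate 1 called it (-0.43 to -0.32 over the 7, adjusted p 0.0155 to 0.121). Over all 12 lists of ligands, partners and relatives, 145 genes were tested. Of these, 19 were called higher and 11 lower (20.7%, where 10.6% of all genes tested were called). The BMP list alone gave 7 of the higher and 3 of the lower calls, and the angiopoietin and Itm2 lists gave 0. The 12 lists are not independent of the 10 genes or of earlier results. No test was made of the difference between 20.7% and 10.6%.

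**Figure D4:**
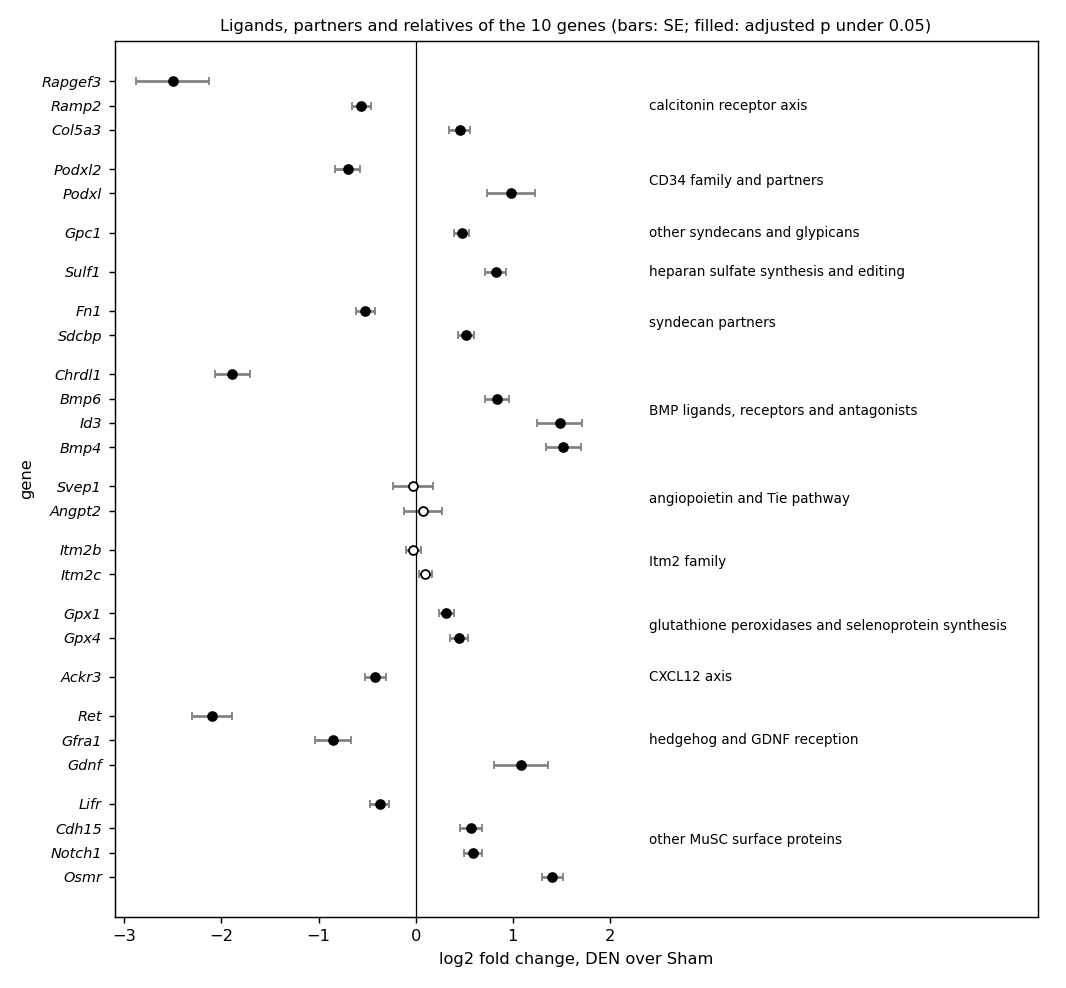
Log2 fold change and SE of up to 4 genes from each list of ligands, partners and relatives (the called genes with the smallest adjusted p, or the 2 most expressed where none was called), for 3 DEN against 4 Sham libraries, with filled circles for an edgeR adjusted p under 0.05. Of the genes plotted, *Rapgef3*, *Ret* and *Chrdl1* lie farthest to the left and *Bmp4*, *Id3* and *Osmr* farthest to the right, and the genes of the angiopoietin and Itm2 lists lie near 0.

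The genes with patterns most like those of the called genes were found by the Euclidean distance between log2 CPM values centred over the 8 libraries, among 11684 candidates. They were picked for this likeness in the same libraries. Their direction and size of change therefore follow from the choice and are no separate support for the called genes. *Slc38a4* (distance 0.31) and *Palmd* (0.38) were nearest to *Gas1*, with log2 fold changes of -0.92 and -0.89. *Mlip* (0.33) and *Raver2* (0.36) were nearest to *Itm2a*, with -0.79 (edgeR adjusted p = 0.0347) and -0.62 (0.0673). The call of *Mlip* was lost with DEN replicate 1 included (-0.64, adjusted p = 0.0671) and without any single library other than Sham replicate 1 (-0.83 to -0.68, adjusted p 0.0731 to 0.103), and *Raver2* was called by DESeq2 (0.0402) and without Sham replicate 1 (-0.75, 0.0228). *Tubb2a* (0.15) and its copy *Tubb2a-ps2* (0.17), whose reads may be shared with it, were nearest to *Gpx3*, with 0.53 and 0.50. *Tubb2a-ps2* was not called without DEN replicate 2, 3 or 4 (0.48 to 0.51, adjusted p 0.0540 to 0.0591).

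The libraries held 28541080 to 34145854 counts, and DEN replicate 1 held 26627173, so all 10 genes rested on at least 1037 counts in every library. MuSC markers were present throughout, with 2 of 9 called higher and 1 lower and a summed level of 8214 to 8643 CPM in DEN replicates 2 to 4 and 7498 to 8582 CPM in Sham. Pericyte and smooth muscle markers summed to 9745 to 10497 CPM in DEN and 9739 to 12558 CPM in Sham (1 of 10 higher, 2 lower). CPM sums of different gene lists cannot be compared with each other. The sorted fraction thus also held transcripts such as *Rgs5*, *Kcnj8*, *Acta2* and *Pdgfrb*, while *Tagln* was at most 12.2 CPM and *Cnn1* at most 4.95 CPM. *Kcnj8* was called higher, and *Acta2* and *Myh11* were called lower. Myofiber markers were higher in DEN (9 of 12 called higher, 0 lower, 1015 to 1076 against 339 to 557 CPM) and erythroid markers lower (5 of 7 called lower, 0 higher, 1955 to 2962 against 5066 to 10191 CPM). Of Schwann cell markers 4 of 10 were called higher and 4 lower, at 171 to 332 CPM in DEN and 307 to 442 CPM in Sham. Markers of fibro-adipogenic progenitors gave 1 of 11 higher and 3 lower, at 5230 to 5636 CPM in DEN and 5843 to 7714 CPM in Sham. *Col1a1* was called higher (mean 118 CPM in Sham and 151 CPM in DEN). *Dcn* (240 and 91.3 CPM), *Col3a1* (2615 and 1755 CPM) and *Mfap5* (23.1 and 9.42 CPM) were called lower. *Pdgfra* was at most 1.82 CPM and *Ly6a* at most 8.41 CPM, and neither was called. Macrophage markers had 1 of 8 called higher, at 7.12 to 128 CPM in DEN and 17.5 to 52.9 CPM in Sham. The highest of these sums was in DEN replicate 2. The called gene, *C1qb*, was at 15.5 CPM there, 0.444 and 0.245 CPM in DEN replicates 3 and 4, and at most 0.339 CPM in Sham. Mitochondrial transcripts took 2.35 to 2.84% of counts in DEN and 3.67 to 5.99% in Sham. The part of these differences in the changes of *Gas1*, *Itm2a* and *Gpx3* was not tested.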

How the data were processed

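Full-length cDNA libraries were sequenced single-end. The authors used bcl2fastq (2.20.0.422), cutadapt (2.1), TopHat2 (2.1.0) on GRCm38 and featureCounts (1.6.5) without strand, and deposited 1 table of raw counts per gene with RPM (counts scaled to the library total) and RPKM (RPM divided by a constant per gene). The 10 genes and all gene lists were chosen with earlier results of these data known. Counts were tested with edgeR (4.0.16, R 4.3.3; TMM, filterByExpr with a minimum count of 10, robust quasi-likelihood F-test). CPM are counts over TMM-scaled totals, with DEN replicate 1 scaled in a fit of 8 libraries. The SE is the log2 fold change divided by the square root of F, and intervals are 95%. Family shares used RPKM with exact permutation tests. P-values measure the spread between mice. Named were the 10 genes, up to 4 called genes per list by adjusted p (or the 2 most expressed where none was called), and the 2 nearest patterns of each called gene. Alternatives were RLE, upper-quartile and no scaling, no filter or a minimum of 50 counts, DESeq2 (1.42.0), limma (3.58.1) on log2(RPM + 0.5), all 8 libraries, leaving out each library, and a replicate block. Positions are from GENCODE M21, and the analysis was tested on simulated data.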

Additional observations from a re-analysis of the deposited data

Results flagged for a closer look

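In 4 DEN libraries, *Ramp2* was at 84.9 CPM in DEN replicate 4 and at 72.4 to 73.1 CPM in the other 3. This 1 library lay apart only beside the narrow spread of the others. *Podxl2* was likewise at 11.3 CPM in DEN replicate 4 and at 9.51 to 9.67 CPM in the other 3. Of 90 groups of 4 libraries examined this way 2 were flagged, fewer than the about 1 in 20 groups that chance alone gives. In both genes DEN replicate 4 still lay below every Sham library.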

How the results depend on the processing

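Over the 17 alternatives the log2 fold change of *Gas1* stayed between -1.19 and -0.98 and was called in each. *Gpx3* was called in 14 and *Itm2a* in 9. The count of called genes among the 10 was 1 to 4 with 1 library left out (1 without DEN replicate 4 or Sham replicate 2), and that of list genes called lower was 7 to 11 (7 without DEN replicate 2). With 1 library left out the log2 fold changes ran from -0.61 to -0.22 for *Calcr*, -0.13 to 0.03 for *Cd34*, 0.15 to 0.37 for *Sdc4*, -0.22 to 0.06 for *Chrdl2*, -0.83 to -0.55 for *Itm2a* and 0.42 to 0.57 for *Gpx3*, and from -0.07 to 0.23 for *Angpt2*, -0.18 to 0.11 for *Svep1* and -0.06 to 0.01 for *Itm2b*. With no filter on low counts *Itm2a* was at -0.67 but not called (adjusted p = 0.0952), and *Gfra1*, *Id1* and *Smad6* were not called either. With all 8 libraries the sign turned for *Cd34* (0.11), *Chrdl2* (0.04), *Tek* (0.04), *Angpt2* (-0.04) and *Itm2b* (0.00). The number of genes called over the whole table was 1853, and 2613 by DESeq2, 1335 with the replicate block and 1098 to 1814 with 1 library left out. No scaling moved the median of all genes by 0.1.

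The labels do not say whether shared replicate numbers pair the samples. Deviations of same-numbered DEN and Sham libraries correlated at -0.01, 0.01 and -0.06 for replicates 2, 3 and 4. Libraries of different numbers were not compared in this way, so these values cannot decide whether the samples were paired. In the replicate block without DEN replicate 1, Sham replicate 1 was the only library with its number. It therefore added nothing to the group difference, and values lay near those of the fit without it. *Itm2a* was at -0.82 with the block and -0.83 without Sham replicate 1, and *Angpt2* at -0.06 and -0.07. With this block *Svep1* was at 0.10, *Gpx1*, *Col5a3*, *Ackr3* and *Tubb2a-ps2* were no longer called, and *Boc* was. With the block and all 8 libraries, *Cd34* was at 0.08, *Chrdl2* at 0.00, *Tek* at 0.02, *Itm2b* at 0.01, *Svep1* at 0.01, *Angpt2* at -0.02 and *Itm2a* at -0.56 (adjusted p = 0.107), and *Gpx1*, *Ackr3*, *Gfra1*, *Lifr* and *Mlip* were not called (adjusted p 0.0755 to 0.329). Beyond the loss of Sham replicate 1 from the comparison in the first block fit, the causes of these differences were not tested. All 10 genes had at least 1037 counts in each library, while depth limits low genes such as *Rapgef3* (2 to 125 counts) and *Gdnf* (43 to 166).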
